A study of Mus musculus with 6 samples.

Results

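The genes described here are 33 genes of presynaptic vesicle release and the active zone. They were chosen by name, as members of the release machinery, with earlier results of these data known. All 33 were found among the 15939 gene IDs in the data. The tissue was nucleus accumbens of C57BL/6N mice, a ventral striatal region studied in drug reward, taken after conditioned place preference training, in which an animal learns to associate a chamber with an injection. One group received saline and the other morphine, with 3 RNA libraries in each, numbered 1, 2 and 3 for saline and 4, 5 and 6 for morphine. The design text gives 6 mice per group but not which mice went into which sample, so the p-values measure the spread between these samples, which may be in part technical. Dose, age and sex were not stated, and strain and tissue were the same in both groups.

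A nerve terminal releases transmitter when a vesicle held at the active zone fuses with the membrane after calcium enters. SNARE proteins on vesicle and membrane zip together to drive fusion, synaptotagmins sense the calcium, complexins clamp and assist the SNARE complex, and NSF with its SNAP adaptors takes the complex apart again. Scaffolds such as RIM, Munc13, ELKS, liprin, Bassoon and Piccolo hold vesicles and calcium channels at the release site, and many of these long genes are known to be alternatively spliced in neurons.

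Each library's deposited data are a catalogue of events in its assembled transcripts: first exons, last exons, skipped exons, retained introns and alternative exon ends. The measure is the number of distinct events of a gene in a library, so it describes the variety of transcripts recorded and is not an expression level. Depth behind a catalogue is unknown, since no read counts are in it, and an event that is not listed was not recorded, which does not show that it was absent. Some type codes mark an approximate match of exon boundaries, called approximate below, and the others an exact one. The same boundaries listed under both kinds count as separate events, so event numbers can exceed the numbers of exons, introns or ends involved. The 6 catalogues held between 54641 and 58007 distinct events, and the ranges of the groups overlapped. Coordinates are on GRCm38, and exons were named with the GENCODE M21 annotation.

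Markers of the tissue were present: all 13 genes of a medium spiny neuron list were listed in all 6 libraries, with 58 to 62 events summed in saline and 59 to 65 in morphine. Other cell types were also recorded. Sums ran from 21 to 22 in saline and 19 to 21 in morphine for 4 oligodendrocyte genes, from 11 to 12 and at 11 for 4 astrocyte genes, and from 9 to 10 and at 9 for 4 microglia genes. Endothelium had 9 to 11 and 10 events from 2 of 3 genes, with Cldn5 at 0. Genes of glutamatergic neurons of neighbouring regions, 5 of 5, had 11 to 16 and 10 to 17, and dopamine neuron genes, 2 with Slc6a3 at 0 in part of the libraries, had 4 and 3 to 6. The ependyma and choroid plexus list of 4 genes, with Tmem72 at 0 in part of the libraries, had 18 to 25 events in saline and 12 to 15 in morphine without overlap, and its part in the results below was not tested. These sums count events and are not RNA amounts, so they do not show whether a cell type was more or less abundant. In bulk tissue, fewer cells of a type and less RNA per cell also cannot be told apart.

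Across the 33 presynaptic genes the number of events was alike in both groups. In the order saline 1, 2, 3 and morphine 4, 5, 6, used for all values below, the summed events were 265, 229, 219 and 262, 218, 210. The groups overlapped, with 238 ± 24.2 events under saline and 230 ± 28 under morphine (SD, n = 3 each). Their log2 ratio of morphine over saline was -0.05, beside a spread of 0.158 between libraries of a group on the log2 scale. Saline library 1 and morphine library 4 had the highest sum of their group.

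Of the 33 genes, 8 had a log2 ratio above 0, 12 below 0 and 13 at 0, with a median of 0, which was also the median of all 15040 genes tested. Only Syt1 passed limma (Benjamini-Hochberg adjusted p under 0.05 over all genes tested), with fewer events in morphine. Of all genes tested, 0.638% passed in either direction, 0.439% with fewer and 0.199% with more events in morphine. A further description counted genes whose groups did not overlap. None of the 33 lay higher in every morphine library, beside 1.64% of all genes, and 2, Syt1 and Unc13b, lay lower in every morphine library, beside 1.43%. That is 6.06% in either direction against 3.07%, and the smallest p of an exact two-sided permutation test with 3 against 3 libraries is 0.1.

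Event number differed far more between the genes than between the groups. The plot of events by gene and library shows this: 11 of the 33 genes (33.3%) had the same number in all 6 libraries, against 22.8% of all genes tested, while Rims1 ranged from 13 to 46. Genes with more annotated exons had more events, with a Spearman rho of 0.75 over the 33 genes as a description, and gene length gave 0.59. Both are properties the genes share with their annotation.

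**Figure D1:**
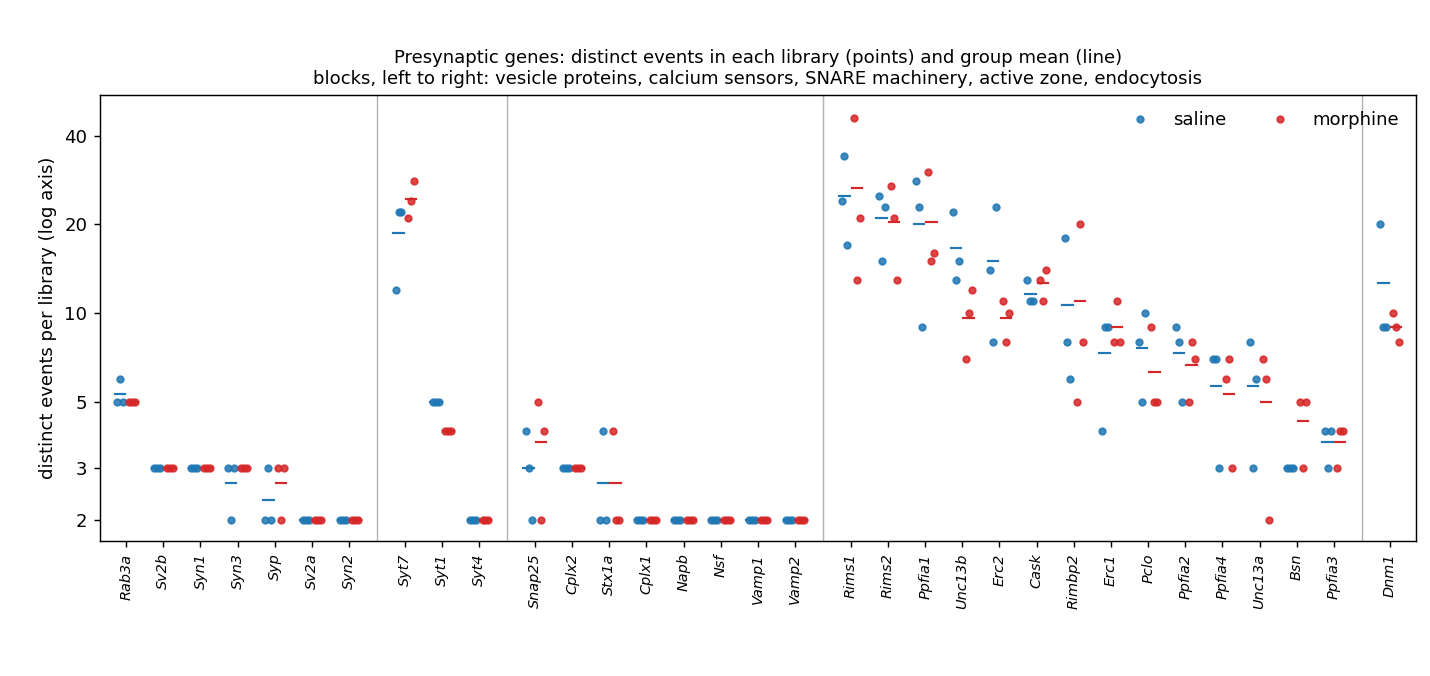
Distinct events (log axis) of each of the 33 presynaptic genes in each library, as points, with group means as lines, in blocks by role. Vesicle and SNARE genes sit at 2 to 6 events, while active zone genes reach 46, and the 2 groups separate only for Syt1 and Unc13b.

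The 7 genes of synaptic vesicle proteins had few events, 20, 21, 20 under saline and 21, 20, 21 under morphine, with 2 to 6 per gene. Synapsins tether vesicles in the reserve pool: Syn1 had 3 events and Syn2 had 2 in all 6 libraries. Syn3, whose 3, 2, 3 and 3, 3, 3 events overlapped, varied in which last exon was listed, since no last exon of it was shared by all 6 libraries. The vesicle glycoprotein genes Sv2a and Sv2b had 2 and 3 events in every library, but in morphine 4 both Sv2a events lay on the opposite strand.

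Rab3a, the small GTPase that links vesicles to RIM, had 5, 6, 5 events in saline and 5 in every morphine library. Its 25 nt alternative exon end, outside the coding sequence, was listed in all 6 libraries. Syp, which encodes synaptophysin, a major membrane protein of the vesicle, had 2, 3, 2 and 3, 2, 3 events, with a second annotated first exon in saline 2 and morphine 4 and 6. In saline 3 both Syp events lay on the opposite strand, where the annotation places Gm14703. Of the 29 distinct events of the vesicle protein genes, 14 (48.3%) were listed in all 6 libraries.

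The calcium sensors held both the only gene passing limma and a gene, Syt7, with up to 28 events in a library. Syt1 (ENSMUSG00000035864, chr10:108497650-109010982 on the minus strand), which encodes the main fast calcium sensor for release, had 5, 5, 5 events under saline and 4, 4, 4 under morphine. No library of the 2 groups overlapped, and within a group the libraries did not differ. The log2 ratio was -0.29 with a standard error of 0.0156 (limma adjusted p = 0.00384), and the exact permutation p was 0.1. At nearly the same log2 ratio the call was lost with robust eBayes (-0.29, limma adjusted p = 1) and with libraries scaled to equal totals (-0.30, limma adjusted p = 0.829). Of the 96 genes that passed limma, 87 likewise had no spread within either group.

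The missing Syt1 event was a second record of 1 exon. The exon, chr10:108993838-108993917 on the minus strand, is 80 nt long and lies outside the coding sequence. Its skipping between the same flanking exons was listed as an exact event in all 6 libraries, and as an approximate event too in the 3 saline libraries only. Among all 128790 distinct events, 0.345% were listed in all 3 saline and no morphine library. Counted with exact types alone, or by distinct positions, Syt1 had 4 events in every library. Its last exon was listed at one annotated splice site in 5 libraries, and in saline 2 an event on the opposite strand took its place. With events on the annotated strand alone, or annotated events alone, the values were therefore 5, 4, 5 and 4, 4, 4, which overlapped.

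Syt7 encodes a high-affinity synaptotagmin with roles in asynchronous release and facilitation, and has a variable linker between membrane anchor and calcium-binding domains. It had 12, 22, 22 events under saline and 21, 24, 28 under morphine. Saline 1 was the lowest and morphine 6 the highest, while saline 2 and 3 lay above morphine 4. The log2 ratio of 0.42 did not pass limma (adjusted p = 0.905; exact permutation p = 0.3). Without morphine 4 the 2 groups did not overlap.

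Most Syt7 events were exon skipping, with 8, 18, 18 under saline and 18, 14, 20 under morphine. They were combinations of a few neighbouring exons. Those of 132 and 228 nt were skipped singly in all 6 libraries, one of 369 nt in blocks in all 6, and one of 123 nt (chr19:10422395-10422517) in saline 2 and 3 and morphine 4 and 6. The 132 nt exon, chr19:10421757-10421888 on the plus strand, is shown because its skipping, alone and with its neighbours, was listed in all 6. Capitals are the exon and lower case the 12 bases on either side in an annotated transcript.
Syt7, 132 nt exon: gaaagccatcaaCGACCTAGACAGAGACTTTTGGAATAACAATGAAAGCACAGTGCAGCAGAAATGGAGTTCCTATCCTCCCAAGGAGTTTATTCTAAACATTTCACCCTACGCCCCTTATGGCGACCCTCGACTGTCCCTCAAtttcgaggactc
The other calcium sensor gene, Syt4, an activity-induced synaptotagmin, had 2 events in each library, but none of them was shared by all 6. Saline 3 listed a different first exon, and in morphine 5 the last exon lay on the opposite strand.

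SNARE genes and their partners were among the least varied in event number. The 8 genes summed to 19, 20, 17 events under saline and 22, 17, 19 under morphine, and 6 of them had a constant number. Vamp1 and Vamp2, the vesicle SNAREs, Cplx1, Nsf and Napb, which encodes an adaptor for NSF, had 2 events in every library, and Cplx2 had 3. A constant number did not always mean the same events. The last exon lay on the opposite strand for Cplx1 in morphine 5 and for Nsf in morphine 4. A different last exon was listed for Vamp1 in saline 3 and for Cplx2 in morphine 5. Stx1a, the plasma membrane syntaxin, had 2, 4, 2 and 4, 2, 2 events, the extra pair being approximate alternative exon ends in saline 2 and morphine 4.

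Snap25, the plasma membrane SNARE cut by botulinum toxin A, had 4, 3, 2 events under saline and 5, 2, 4 under morphine, with overlap. All its 15 distinct events lay on the minus strand, although the gene is on the plus strand of chromosome 2, so no first or last exon of the annotated transcripts was listed for it in any library. They spanned 136697669 to 136782264, where the annotation used here holds no minus-strand gene. Of 15833 annotated genes, 596 (3.76%) were listed on the opposite strand alone in at least 1 library, and 12 (0.0758%) in all 6. Whether the libraries kept strand is not stated, so no Snap25 isoform could be read from these data.

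The 14 active zone genes carried most of the events, 187, 150, 144 under saline and 182, 142, 128 under morphine. The 2 groups overlapped. Of their 398 distinct events 56 (14.1%) were listed in all 6 libraries, a lower share than the 48.3% of the vesicle protein genes. The calcium sensors had 25%, the SNARE genes and their partners 30.6% and Dnm1 17.9%. The vesicle protein genes had no retained-intron events, a class in which no event was listed in all 6 libraries. The part of event class in these shares was not tested. By gene, 4 of the 14 active zone genes had a log2 ratio above 0 and 9 below. Rims1 and Rimbp2 are among those below, although their plain means were higher in morphine (25 and 26.7, and 10.7 and 11). None of the 14 had a constant number.

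Munc13 proteins prime vesicles for fusion. Unc13b (ENSMUSG00000028456, chr4:43058953-43264871 on the plus strand), the gene of Munc13-2, had 22, 13, 15 events under saline and 7, 10, 12 under morphine. Every morphine library lay below every saline library, by 1 event between the nearest pair. The means were 16.7 ± 4.73 and 9.67 ± 2.52 (SD, n = 3 each), with a log2 ratio of -0.75 and a standard error of 0.294. This did not pass limma (adjusted p = 0.905), and the exact permutation p was 0.1, the smallest possible. The ependymal marker sums given above also did not overlap between the groups.

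By event class, the Unc13b groups were apart in exon skipping, with 3, 5, 4 events against 1, 2, 1. First exons, 8, 4, 3 and 2, 4, 5, and retained introns, 9, 3, 5 and 3, 3, 5, overlapped. Counting only first and last exons, the gene had 10, 5, 4 and 3, 5, 6 events, which also overlapped. Without first and last exons the values were 12, 8, 11 and 4, 5, 6. The groups stayed apart with annotated events alone, at 13, 11, 8 and 4, 7, 7, and with exact types alone, at 20, 13, 13 and 7, 9, 12. Both are parts of the same events and so not separate support. Annotated events leave out most retained introns, without which the values were 13, 10, 10 and 4, 7, 7.

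**Figure D2:**
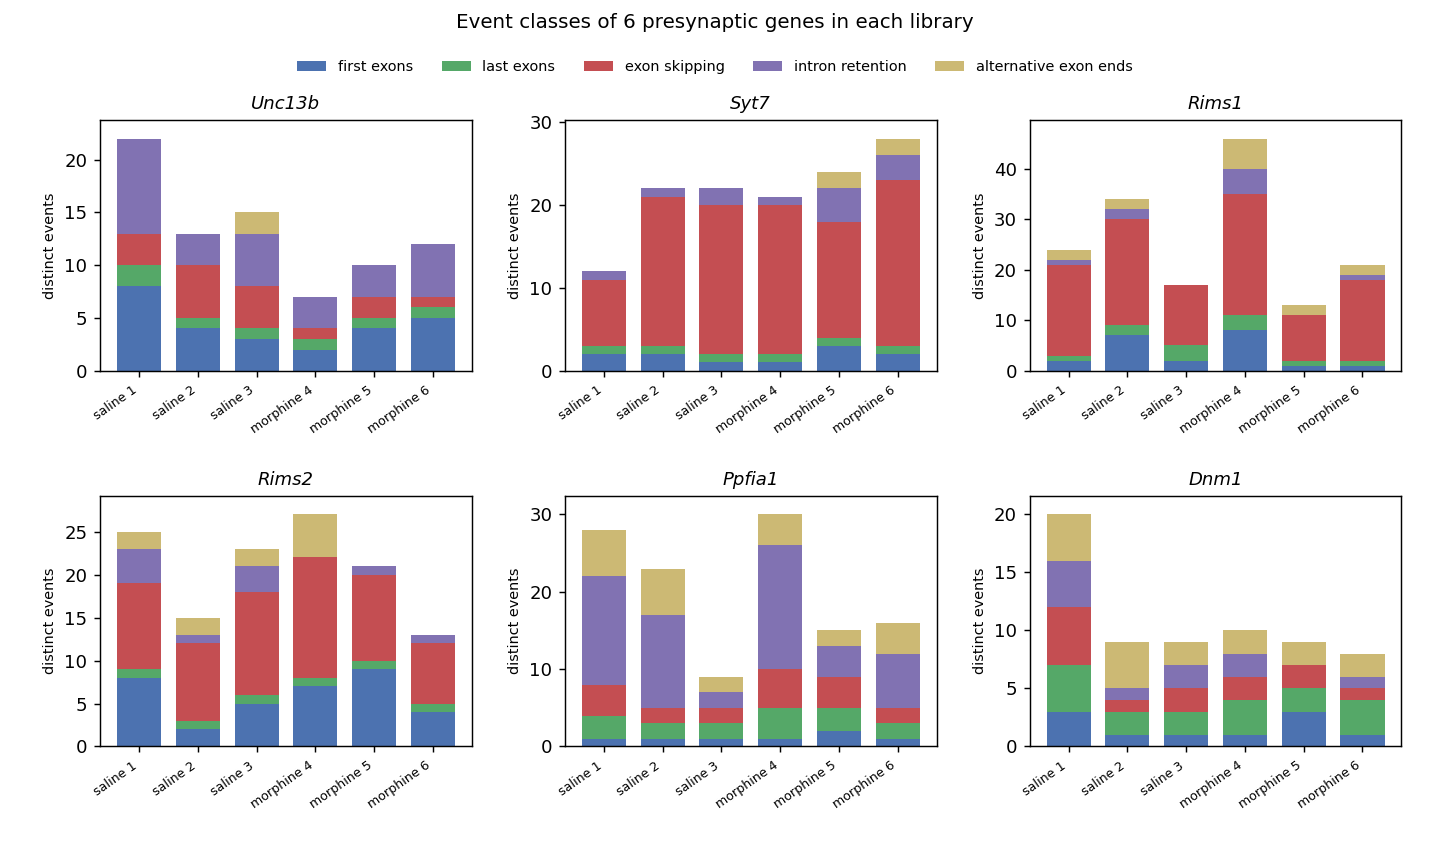
Distinct events (linear axis from 0) of 6 presynaptic genes in each library, stacked by event class. Exon skipping in Unc13b is 3 to 5 events in saline and 1 or 2 in morphine; in Rims1, Rims2, Ppfia1 and Dnm1 single libraries of both groups stand high or low, and in Syt7 saline 1 is low.

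Annotated coding exons of 36, 57 and 23 nt account for most of the skipping in Unc13b. The 36 nt exon, chr4:43161443-43161478, was skipped in all 6 libraries. The 57 nt exon, chr4:43260993-43261049, was skipped in the 3 saline libraries and in morphine 5. The 23 nt exon, chr4:43227925-43227947, was recorded as skipped in all 3 saline and in no morphine library. A missing record does not show that the morphine libraries included the exon. Of the 9056 exons skipped singly in any gene, 0.453% had this pattern and 0.32% the reverse. The 23 nt exon was the only one of either pattern among the presynaptic genes, also with blocks counted. Its records were not alike: saline 1 had a more distant upstream exon than saline 2 and 3, and saline 3 an approximate type. Its length is not a multiple of 3, unlike that of the other 2. All 3 are on the plus strand and are shown with the exon in capitals.
Unc13b, 36 nt exon: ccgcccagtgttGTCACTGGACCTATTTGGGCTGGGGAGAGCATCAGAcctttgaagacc
Unc13b, 23 nt exon: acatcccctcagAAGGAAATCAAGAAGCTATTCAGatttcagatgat
Unc13b, 57 nt exon: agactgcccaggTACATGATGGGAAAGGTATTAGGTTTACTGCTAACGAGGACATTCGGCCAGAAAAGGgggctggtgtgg

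Unc13a, the gene of Munc13-1, the main priming factor of most brain synapses, had 8, 3, 6 events under saline and 7, 6, 2 under morphine. The 2 groups overlapped, with saline 2 and morphine 6 low. It has a 57 nt exon, chr8:71633439-71633495 on the minus strand, which matches the 57 nt exon of Unc13b at 40 of 57 bases (70.2%) and was skipped in saline 2 only. A 6 nt exon, chr8:71655503-71655508, was recorded as skipped, by approximate types alone, in saline 1 and 3 and morphine 4 and 5. The same 4 libraries listed a 21 nt alternative exon end. The first 2 are shown beside the Unc13b exons for comparison.
Unc13a, 57 nt exon: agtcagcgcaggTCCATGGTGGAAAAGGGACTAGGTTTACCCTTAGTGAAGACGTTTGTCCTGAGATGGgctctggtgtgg
Unc13a, 6 nt exon: gtgagcgacctgGCTATGtcattggtgcag

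RIM proteins bind Rab3, Munc13 and calcium channels, and their genes had many events. Rims1 had 24, 34, 17 events under saline and 46, 13, 21 under morphine, and morphine held both the highest and the lowest library. The log2 ratio was -0.04 (limma adjusted p = 1). Exon skipping gave 18, 21, 12 and 24, 9, 16 of these events, and first exons 2, 7, 2 and 8, 1, 1. Rims2 had 25, 15, 23 and 27, 21, 13 events, which overlapped, and the log2 ratio was -0.07 (limma adjusted p = 1).

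An exon can be skipped singly or in a block with its neighbours. Of the 11 exons of Rims1 that were skipped singly, 3 coding exons of 84, 69 and 81 nt were so listed in all 6 libraries and 4 in 1 library. Of the 11 in Rims2, 2 coding exons of 66 and 180 nt were listed in all 6 libraries and 4 in 1 library. With blocks counted too, 8 of 16 exons in Rims1 and 7 of 16 in Rims2 were skipped in all 6 libraries, and 3 and 5 in a single one. The 101 nt coding exon of Rims2, for example, was skipped singly in morphine 4 and 5 but in a block in all 6. The exons printed here were skipped singly in all 6 libraries. They are on the minus strand for Rims1 (chr1:22412211-22412294, chr1:22630412-22630480 and chr1:22726930-22727010) and the plus strand for Rims2 (chr15:39517806-39517871). Their lengths are multiples of 3, and the exon is in capitals.
Rims1, 84 nt exon: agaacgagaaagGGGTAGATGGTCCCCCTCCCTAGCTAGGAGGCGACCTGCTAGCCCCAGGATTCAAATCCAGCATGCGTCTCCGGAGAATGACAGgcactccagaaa
Rims1, 69 nt exon: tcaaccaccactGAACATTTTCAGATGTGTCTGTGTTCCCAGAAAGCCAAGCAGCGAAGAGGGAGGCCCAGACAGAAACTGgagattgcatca
Rims1, 81 nt exon: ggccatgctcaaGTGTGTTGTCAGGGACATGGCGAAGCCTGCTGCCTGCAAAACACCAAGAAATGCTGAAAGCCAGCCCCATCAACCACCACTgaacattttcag
Rims2, 66 nt exon: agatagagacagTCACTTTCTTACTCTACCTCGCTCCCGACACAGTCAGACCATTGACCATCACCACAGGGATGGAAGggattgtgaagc

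Bassoon and Piccolo are the very large scaffolds of the active zone cytomatrix. Bsn had 3, 3, 3 events under saline and 5, 3, 5 under morphine, with overlap through morphine 5. The log2 ratio was 0.43 (limma adjusted p = 0.905; exact permutation p = 0.4). Without morphine 5 the groups did not overlap and Bsn passed limma (adjusted p = 0.000118), each group then having no spread. The events that raised the count were retained introns, 0, 1, 0 and 2, 0, 2, around one stretch of the gene, 1 of which was also listed in saline 2.

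Pclo had 8, 5, 10 events under saline and 9, 5, 5 under morphine, with overlap. A 39 nt alternative exon end of Pclo was listed in all 6 libraries with both boundaries annotated. It lies at chr5:14718818-14718856 on the plus strand and is shown with the added bases in capitals.
Pclo, 39 nt alternative end: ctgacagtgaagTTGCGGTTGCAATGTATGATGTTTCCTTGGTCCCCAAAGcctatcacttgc

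ELKS proteins, encoded by Erc1 and Erc2, bind RIM and Bassoon. Erc1 had 4, 9, 9 events under saline and 8, 11, 8 under morphine, with saline 1 low. A 132 nt coding exon of Erc1 was skipped in saline 3 and all 3 morphine libraries. Erc2 had 14, 8, 23 events under saline and 11, 8, 10 under morphine, and overlapped through saline 2. Its log2 ratio of -0.50 did not pass limma (adjusted p = 0.905; exact permutation p = 0.4), and without saline 2 its groups did not overlap. In saline 1, 2 of its events, both last exons, lay on the opposite strand, where the annotation places Gm45645. On the annotated strand alone the values were 12, 8, 23 and 11, 8, 10. The 36 nt coding exon of Erc2, chr14:28029434-28029469 on the plus strand, was skipped in every library. A 24 nt coding exon, chr14:27776159-27776182, was recorded as skipped in saline 1 and 3 alone. Both are shown, as a constant and a variable exon of 1 gene.
Erc2, 36 nt exon: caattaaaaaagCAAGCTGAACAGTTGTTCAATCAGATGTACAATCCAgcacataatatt
Erc2, 24 nt exon: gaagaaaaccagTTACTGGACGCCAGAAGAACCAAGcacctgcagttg

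Liprins-alpha recruit other scaffolds to the release site. Ppfia1 had the most events of the 4 genes, with 28, 23, 9 events under saline and 30, 15, 16 under morphine. The groups overlapped, with saline 3 lowest. Its retained-intron events, 14, 12, 2 and 16, 4, 7, gave most of that range. Ppfia2 had 9, 8, 5 and 5, 8, 7 events, Ppfia3 had 4, 3, 4 and 3, 4, 4, and Ppfia4 had 7, 7, 3 and 6, 7, 3. Their log2 ratios were between -0.11 and 0, and Ppfia1 had 0.10.

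Short coding segments recurred in the liprin genes. Ppfia1 skipped a 75 nt exon (chr7:144514872-144514946) in all 6 libraries and a 30 nt exon (chr7:144502867-144502896) in all but saline 2. In Ppfia3 a 27 nt exon (chr7:45343553-45343579) was skipped in saline 1 and 3 and morphine 5 and 6. Ppfia2 listed an 18 nt alternative exon end (chr10:106906366-106906383) in all 6. The Ppfia2 segment is on the plus strand and the others on the minus strand, with the exon or added bases in capitals.
Ppfia1, 75 nt exon: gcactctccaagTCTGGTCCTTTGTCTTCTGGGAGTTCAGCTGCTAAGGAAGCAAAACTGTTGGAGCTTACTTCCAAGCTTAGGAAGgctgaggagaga
Ppfia1, 30 nt exon: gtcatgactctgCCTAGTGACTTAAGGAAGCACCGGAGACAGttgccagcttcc
Ppfia3, 27 nt exon: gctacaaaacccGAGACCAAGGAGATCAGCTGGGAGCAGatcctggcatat
Ppfia2, 18 nt alternative end: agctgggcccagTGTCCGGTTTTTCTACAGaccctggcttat

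Rimbp2 encodes a RIM-binding protein that couples RIM to calcium channels. Its events numbered 18, 8, 6 under saline and 5, 20, 8 under morphine, and each group had 1 high library. Its retained-intron and alternative-end events were listed in those 2 libraries only, 6 of each in saline 1 and 4 of each in morphine 5. These are not numbers of different introns or ends, since some boundaries were listed as both an exact and an approximate event in both libraries. Rimbp2 had the only event of the 33 genes listed in all 3 morphine and no saline library, a last exon at chr5:128757791-128760849 on the minus strand with an annotated splice site. Of all events, 0.321% had that pattern, and 0.665% were listed in all libraries of one group and none of the other. A second annotated last exon, with its splice site at 128761474, was listed in saline 3 and in all 3 morphine libraries. A 21 nt coding exon, chr5:128811983-128812003 on the minus strand, was recorded as skipped in morphine 5 and 6 alone and is shown in capitals.
Rimbp2, 21 nt exon: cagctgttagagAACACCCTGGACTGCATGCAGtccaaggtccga

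Cask encodes a scaffold that binds neurexin and liprins and is found on both sides of the synapse. Its events numbered 13, 11, 11 under saline and 13, 11, 14 under morphine, with overlap, a log2 ratio of 0.11 and no retained intron in any library. Cask varied little between libraries: coding exons of 36, 69 and 18 nt were skipped, and alternative ends of 15 and 18 nt listed, in all 6 libraries. Exon skipping numbered 4, 3, 3 and 6, 4, 6. Joint skipping of the neighbouring 36 and 69 nt exons was listed in morphine 4 and 6 and in no other library. The 3 exons (chrX:13550947-13550982, chrX:13552373-13552441 and chrX:13596686-13596703) and the 2 ends (chrX:13537827-13537841 and chrX:13785919-13785936) are on the minus strand, in capitals below, and all 5 lengths are multiples of 3. The 36 and 69 nt exons are printed with flanks from annotated transcripts that each lack the other exon. Single skipping of either exon between these flanks was listed in morphine 4 and 6 only. In all 6 libraries each was skipped with the other as its neighbour.
Cask, 36 nt exon: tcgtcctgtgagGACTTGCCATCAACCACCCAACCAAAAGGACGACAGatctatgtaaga
Cask, 69 nt exon: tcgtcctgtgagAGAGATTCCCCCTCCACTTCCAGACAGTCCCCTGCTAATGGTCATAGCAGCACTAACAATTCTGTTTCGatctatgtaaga
Cask, 18 nt exon: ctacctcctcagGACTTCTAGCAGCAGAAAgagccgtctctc
Cask, 15 nt alternative end: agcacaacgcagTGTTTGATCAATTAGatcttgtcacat
Cask, 18 nt alternative end: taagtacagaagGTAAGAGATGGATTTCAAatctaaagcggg

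Dnm1, the neuronal dynamin that cuts endocytic vesicles from the membrane, was the only endocytosis gene of the set. It had 20, 9, 9 events under saline and 10, 9, 8 under morphine. Saline 1 stood above the other 5 libraries, which lay between 8 and 10, and the groups overlapped (log2 ratio -0.38, limma adjusted p = 0.905; exact permutation p = 0.7). All 6 libraries listed a 26 nt alternative end in the coding sequence and the skipping of a 37 nt, partly coding exon. The former, chr2:32312684-32312709 on the minus strand, is not a multiple of 3 and is in capitals.
Dnm1, 26 nt alternative end: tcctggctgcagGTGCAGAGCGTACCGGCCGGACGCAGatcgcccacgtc

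Over the whole set, 69 exons of 16 genes were skipped singly in at least 1 library, and 20 exons of 12 genes in all 6 (29.0%, against 23.5% over all genes). With exons skipped in blocks these were 88 exons, of which 32 (36.4%) were skipped in all 6 libraries, against 22.3% over all genes. Both counts include Snap25 records on the opposite strand and spans across an intron listed as retained, up to 66795 nt long. The counts of lengths that follow are for single skipping. A coding exon whose length is a multiple of 3 can be left out without changing the reading frame. By length alone, 45 of the 69 exons (65.2%) were multiples of 3, against 51.3% of the 9056 exons skipped singly in any gene. Of the 20 constant ones 16 (80%) were, against 69.8% of 2126. Some lie outside the coding sequence, such as the 711 nt exon of Rimbp2, or only partly in it, such as the 66 nt exon of Erc2. For those, length does not speak to the reading frame. Exons of up to 30 nt made up 11 of the 69 (15.9%; 5.97% over all genes) but 1 of the 20 (5%; 8.75%). The map of singly skipped exons by library shows the 20 filled in every column among the other recurrent ones. These shares are descriptions, since exons of 1 gene share their transcripts.

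**Figure D3:**
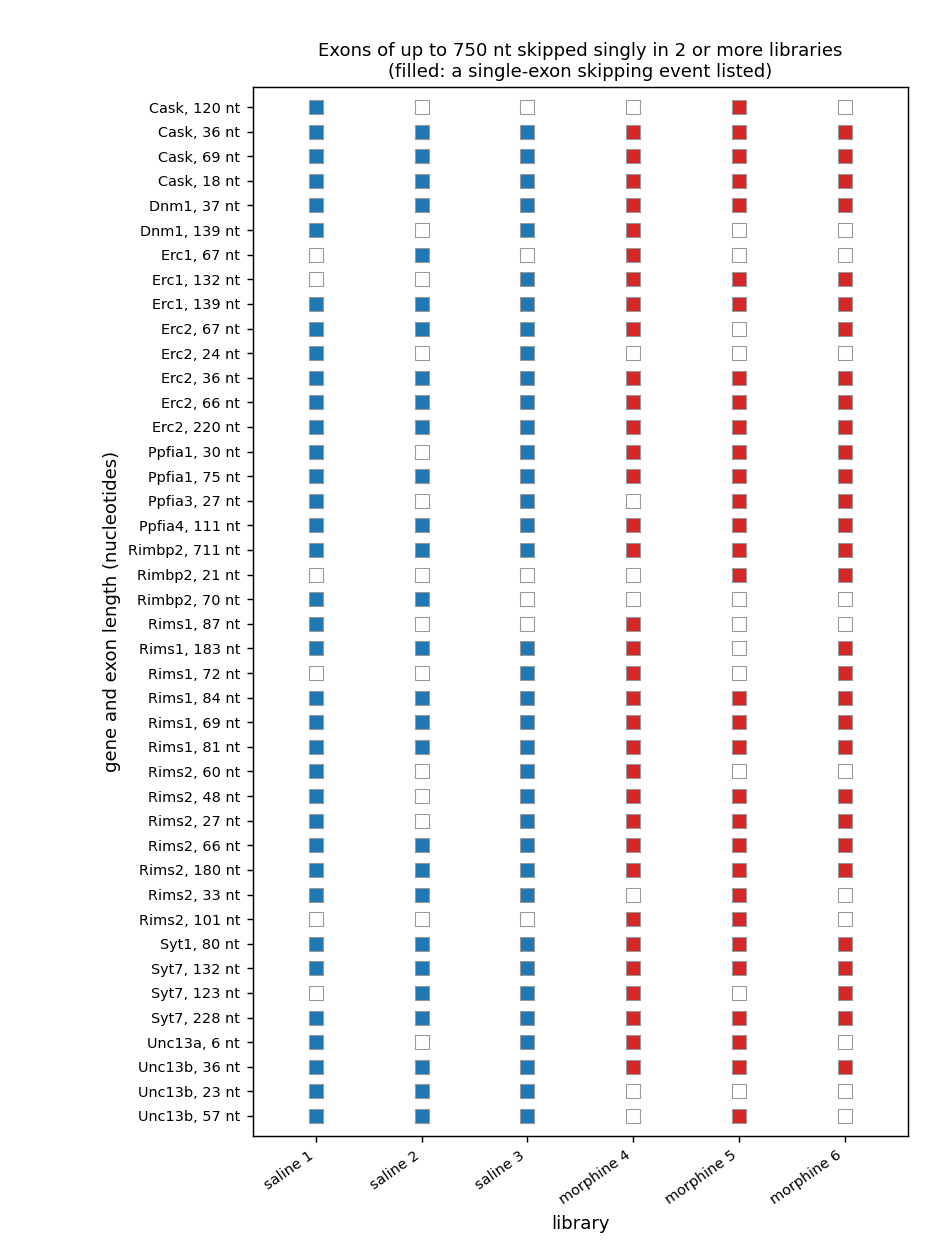
The 42 exons of up to 750 nt that were listed as skipped singly, not in a block with neighbours, in 2 or more libraries (filled squares, blue for saline and red for morphine; open squares, no single-exon event listed), by gene and exon length. The 20 full rows are single skipping listed in all 6 libraries, and the 23 nt exon of Unc13b is filled in the 3 saline columns only.

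Short alternative ends, where the 2 listed ends of an exon lay at most 60 nt apart, gave 14 pairs in 8 genes, and 10 of them (71.4%) differed by a multiple of 3, against 49.6% over all genes. Those in all 6 libraries were 6 pairs in 5 genes, of which 4 (66.7%) did, against 72.6% over all genes.

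By event class, the summed events of the 33 genes overlapped between the groups in each of the 5 classes. First exons numbered 74, 64, 57 under saline and 63, 68, 60 under morphine, and last exons 42, 39, 43 and 46, 43, 38. Exon skipping gave 66, 73, 72 and 84, 58, 69. Retained introns gave 43, 23, 17 and 32, 21, 21, and alternative ends 40, 30, 30 and 37, 28, 22.

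Recurrence of the 543 distinct events was close to that of all genes: 274 (50.5%) were listed in 1 library only, against 50.7% over all genes, and 99 (18.2%) in all 6, against 20.9%. By class the share in all 6 libraries was 24.1% for exon skipping (18.3% over all genes), 14.6% for alternative ends (8.85%), 27.9% for first exons (29.8%) and 19.0% for last exons (32.1%). No retained-intron event of the 103 in these genes was listed in all 6 libraries (1.51% over all genes). Of the events, 58.6% counted as annotated, against 63.6% over all genes. For first and last exons this required an annotated splice site, and for skipping and alternative ends an annotated exon. A retained intron counted only where an annotated exon spans it (0.971% here, 6.24% over all genes).

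**Figure D4:**
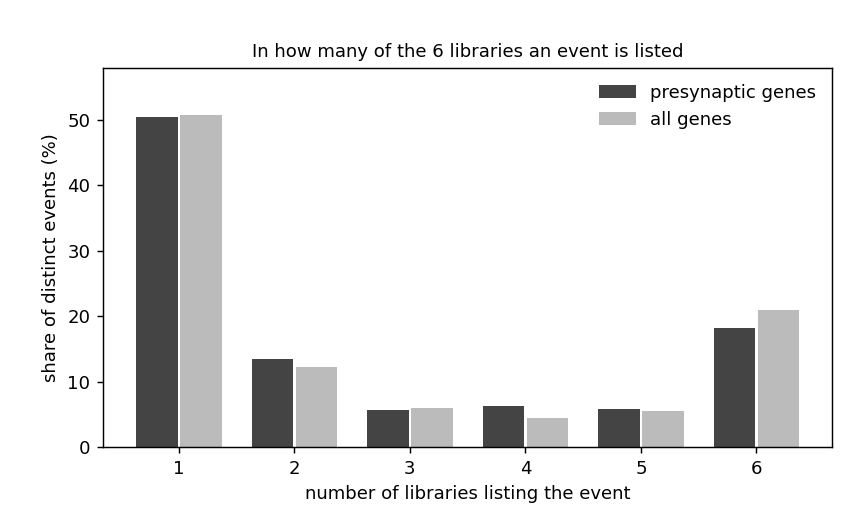
Share of distinct events (percent, bars from 0) by the number of libraries that list them, for the 33 presynaptic genes (dark) and all genes (light). Events of a single library make up 50.5% and 50.7%, and events of all 6 libraries 18.2% and 20.9%.

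A wider list of 83 other presynaptic genes, covering further SNAREs, synaptotagmins, vesicle transporters and endocytic proteins, was counted in the same way. Of these, 82 were tested and Slc18a3 was not listed. The log2 ratio was above 0 for 24, below for 29 and at 0 for 29. None passed limma, and 4 (4.88%) had an unadjusted p under 0.05, against 3.19% of all genes and 1 of the 33 (3.03%). In 2 genes every morphine library was higher and in 1 every morphine library was lower, 3.66% in all.

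Stxbp5, whose protein tomosyn restrains SNARE assembly, had 5, 5, 5 events under saline and 10, 6, 7 under morphine (log2 ratio 0.54). Synj1, the lipid phosphatase synaptojanin of vesicle uncoating, had 7, 7, 7 and 10, 10, 8 (log2 ratio 0.38). Doc2a, a calcium sensor for spontaneous and asynchronous release, had 5, 5, 7 and 4, 4, 3 (log2 ratio -0.56). For each of these 3 the limma adjusted p was 0.905 and the exact permutation p was 0.1.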

How the data were processed

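Per the labels' protocols, RNA was extracted with Trizol and prepared with a standard Illumina protocol. The authors deposited 1 catalogue of transcript events per library, with 20 type codes. The column headed fpkm in the deposited files holds whole numbers at or below 0, so no expression value was used. Aligner, assembler, event caller and build were not given in the sources used here. Coordinates were read on GRCm38 with GENCODE M21, which matched 15833 of 15939 gene IDs. An event counted as annotated by its splice site (first and last exons), its skipped or alternative exons, or an exon spanning the retained intron. Flanking exons were not checked. Of 128790 events 63.6% counted as annotated, and of retained introns 6.24%.

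Events were distinct by type, splice pattern and strand, without the codes ending in OFF, and counted per gene. The main test was limma 3.58.1 (R 4.3.3; a mean-variance trend in eBayes) on log2(events + 0.5) for 15040 genes with a mean of at least 0.5, with Benjamini-Hochberg adjustment and a threshold of 0.05. It was tested on simulated Poisson counts, a setting unlike that of the called genes, most of which had no spread within either group. The exact two-sided permutation tests used all 20 splits. Other steps used Python 3.11.15 with numpy 2.4.6 and scipy 1.17.1. Depth is unknown, so no counting interval was computed. The alternatives were 16 settings and leaving out each of the 6 libraries.

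The genes and lists were chosen with earlier results of these data known. Genes with non-overlapping groups, limma calls or the most events of their role are given by library. Listed besides the 33 genes are 83 presynaptic genes and 8 marker lists.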

Additional observations from a re-analysis of the deposited data

How the results depend on the processing

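No paired analysis was possible because the groups share no replicate number. Depth is unknown, and the data hold no reads. Over all genes limma passed 96 genes, 44 with robust eBayes, 42 without first and last exons and 250 to 285 with a library left out. Among the 33 genes the 1 call, Syt1, became 0 with equal totals, robust eBayes, first and last exons alone, exact types, distinct positions, annotated events and the annotated strand alone; at an unadjusted p under 0.05 these gave 2, 1, 0, 0, 0, 0 and 0 genes. Leaving out a library gave 1 to 2 calls, the second being Bsn without morphine 5. The 2 genes with fewer events in every morphine library became 0 with first and last exons alone and 1, Unc13b, with exact types, distinct positions, annotated events and the annotated strand alone, and 2 to 3 with a library left out. Those with more events were 0, and 0 to 1 with a library left out (Syt7 without morphine 4, Bsn without morphine 5). Events listed in all libraries of one group and none of the other were 2, 1 with exact types and 4 to 12 with a library left out. Quantile normalization gave no counts of non-overlapping genes, and settings of the fit alone do not change the summed events. The log2 ratio of those sums ran from -0.15 without morphine 4 to 0.04 without saline 1. For Unc13b the log2 ratio ran from -0.98 to -0.35 and the limma adjusted p from 0.381 to 1. For Syt1 they ran from -0.74 to 0 and from 1.21e-05 to 1. The sign changed under at least 1 alternative for 11 of the 33 genes, Rimbp2 and Rims2 most often (8 and 6 alternatives), and neither Syt1 nor Unc13b was among them. Settings with the annotated strand alone, and those for single events, were chosen after seeing the data. Apart from what the counting itself changes, the cause of these changes was not tested.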
